A study of Mus musculus with 4 samples.

Results

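The collagen chains described here were the 44 rows of the authors' molar-against-incisor table whose gene symbol has the form of a collagen alpha chain (Col, a type number, a, a chain number), out of 24216 rows in all. Each of the 44 symbols had a single row. RNA came from dental pulp cells of XLacZ4 mice, a reporter strain whose mural cells (pericytes and smooth muscle cells of vessels) make the enzyme beta-galactosidase. There were 2 libraries of molar pulp, a tooth that stops growing, and 2 libraries of incisor pulp, a tooth that grows throughout life in mice. Per the labels' protocols, teeth were dissociated in both groups and cells that turned fluorescent with the beta-galactosidase substrate FDG were sorted. The labels give no age, sex or treatment, and leave unsaid whether the libraries of a tissue are from different animals. For the incisor libraries the protocol names molars, so that title, source and tissue labels decided the group.

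Collagens are secreted or membrane-bound proteins whose chains wind round each other into a stiff triple helix built of glycine-led repeats. Fibrillar collagens give tissue its tensile strength, FACIT collagens sit on the surface of those fibrils, type IV collagen forms the sheet of basement membranes, type VI forms beaded filaments around cells, and type VIII builds networks in vessel walls and beneath the endothelium of the cornea. In teeth, type I collagen is the main organic component of dentin, and pulp is known for type III collagen beside type I.

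All levels below are the authors' FPKM values, read fragments scaled to transcript length and sequencing depth, with 1 combined value per tissue. They have no SD and no n here, and the table gives no depth. A chain is named called where the q value in the authors' deposited table lay under 0.05. The tissues cannot be told apart from any difference in sorting, preparation or sequencing, and fewer cells of a type cannot be told apart from less RNA per cell.

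Markers of several cell types were present in the sorted fractions, and their calls can be read beside those of all tested genes, 11.9% higher in molar and 4.28% higher in incisor. Of 10 mural markers, 2 were called higher in molar, 3 were called higher in incisor, and their FPKM summed to 327 in molar against 833 in incisor. Rgs5 held most of the incisor sum, at 127 FPKM in molar against 537 in incisor. Rgs5, Pdgfrb and Tagln were called higher in incisor. Kcnj8, at 108 FPKM in molar against 16.0 in incisor, and Des were called higher in molar. Endothelial markers summed to 250.4 in molar against 11.7 in incisor, with 9 of 10 called higher in molar and Cldn5 listed at 0 in incisor. Egfl7 and Emcn held most of both endothelial sums. Kdr at 2.52 FPKM and Des at 3.17 FPKM lie below 3.72 FPKM in molar, a limit explained with Col24a1 below. The direction of their calls is therefore uncertain. Tie1 and Cdh5, at 4.27 and 4.53 FPKM in molar, lie only a little above that limit. Dental epithelial markers summed to 2635 in molar against 23505 in incisor, with 8 of 10 called higher in incisor. Amelx held most of both sums, at 1937 FPKM in molar against 20642 in incisor. Odontoblast and osteoblast markers summed to 333 in molar against 452 in incisor, with 1 of 9 called higher in molar and 2 in incisor. Fibroblast markers summed to 3865 in molar against 2337 in incisor, with 1 of 8 called higher in molar, 3 in incisor, and Dpt listed at 0 in incisor. Lum and Dcn held most of both fibroblast sums. Over the 6 fibroblast markers at 1 FPKM or more, the median log2 ratio of molar over incisor was -1.10, with a pseudocount of 1 FPKM. Macrophage markers summed to 7454 in molar against 4966 in incisor, with 1 of 6 called higher in molar. The part of these cell types in the collagen values was not tested.

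Collagen chains were called in both directions. Of the 42 chains that the authors tested, 7 were higher in molar by the q of the authors' deposited table (16.7%), beside 11.9% of all 18770 tested genes. Another 5 were higher in incisor (11.9% of the chains), beside 4.28% of all tested genes. Those higher in molar were Col2a1, Col5a3, Col9a1, Col9a2, Col16a1, Col19a1 and Col24a1, and those higher in incisor were Col6a1, Col8a1, Col8a2, Col12a1 and Col27a1. The other 30 tested chains were not called, with q between 0.0778 and 0.993, and Col13a1 and Col20a1 were not tested by the authors. Under a stricter q of 0.01 there were 5 chains higher in molar, beside 8.8% of all tested genes, and 3 higher in incisor, beside 2.27%. The authors' own mark of significance gave 7 chains higher in molar, beside 12.7% of genes, and 5 higher in incisor, beside 4.69%. Of the 30 tested chains at 1 FPKM or more in either tissue, 6 were higher in molar, beside 16.1% of such genes, and 5 were higher in incisor, beside 5.66%. With a pseudocount of 1 FPKM, the log2 ratio of molar over incisor had a median of -0.20 over these 30 chains, beside 0.14 over all 13200 genes at that level. Over all 44 chains that median was 0.0064, so its sign depended on the minimum.

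**Figure D1:**
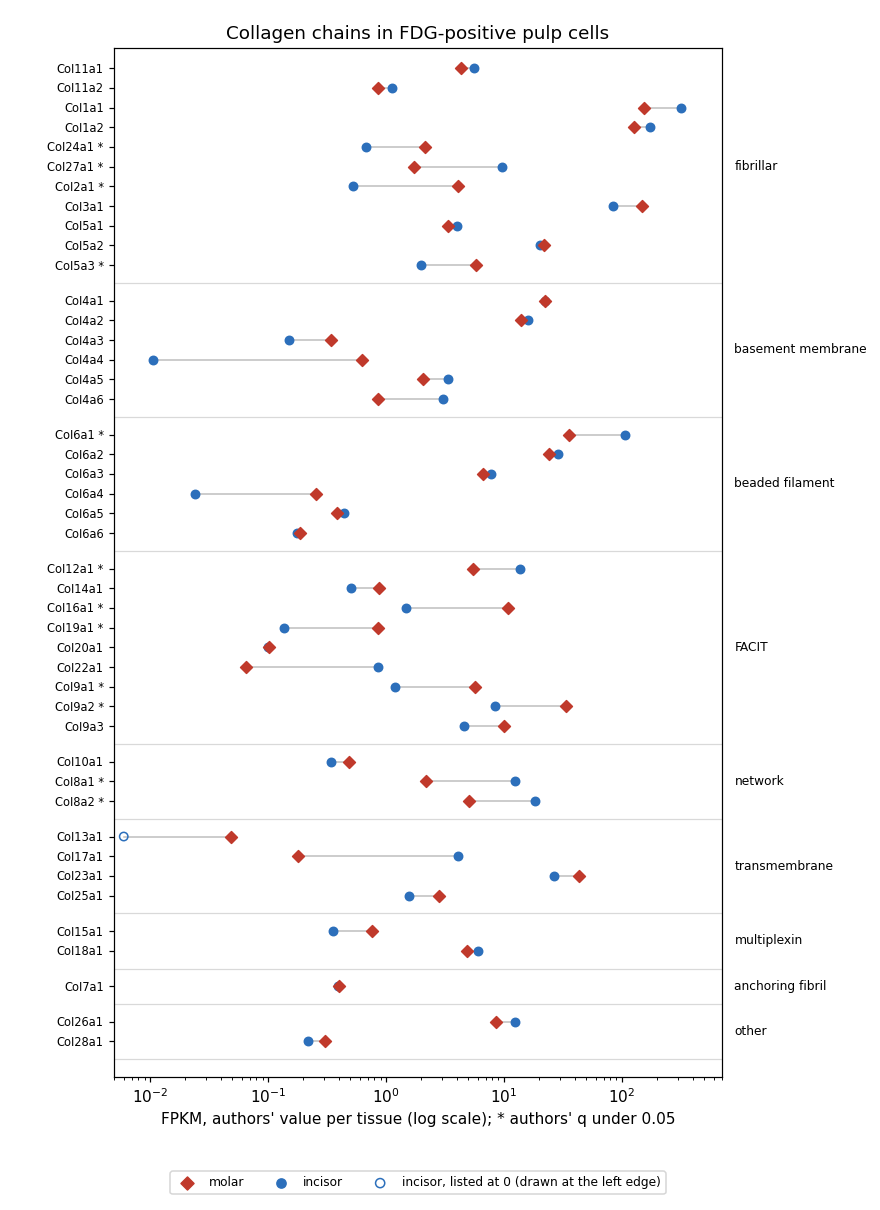
FPKM of all 44 collagen chains in molar (red diamonds) and incisor (blue circles) on a log axis, grouped by class, with 1 authors' value per tissue and an asterisk at chains with q under 0.05. The highest chains, Col1a1, Col1a2 and Col3a1, carry no asterisk, most of the 12 called chains lie at lower levels, and the open circle of Col13a1 marks a listed 0.

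A few chains made up most of the collagen RNA in both tissues. Summed over the 44 chains, FPKM came to 717 in molar against 920 in incisor, which was 0.0879% of all molar FPKM and 0.171% of all incisor FPKM. The 4 highest chains held 65.9% of the molar sum and 74.0% of the incisor sum. In molar these were Col1a1, Col3a1, Col1a2 and Col23a1, and in incisor Col1a1, Col1a2, Col6a1 and Col3a1. At 1 FPKM or more stood 27 chains in molar against 28 in incisor, and 14 chains were below that level in both.

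Shares of the collagen sum are taken within a tissue and so do not depend on how the tissues were scaled to each other. The fibrillar class held 66.0% of collagen FPKM in molar against 67.1% in incisor. FACIT chains held 9.42% in molar against 3.38% in incisor, and transmembrane chains 6.46% in molar against 3.501% in incisor. Among FACIT chains, Col9a2 alone held 4.68% in molar against 0.919% in incisor. Col12a1 went the other way, with 0.759% in molar against 1.49% in incisor. Beaded filament chains of type VI held 9.37% in molar against 15.7% in incisor, and network chains 1.08% in molar against 3.38% in incisor. Basement membrane chains held 5.59% in molar against 4.87% in incisor, and the multiplexins, which carry anti-angiogenic fragments at their ends, 0.792% in molar against 0.691% in incisor. These shares have no replicate error and were not tested.

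**Figure D2:**
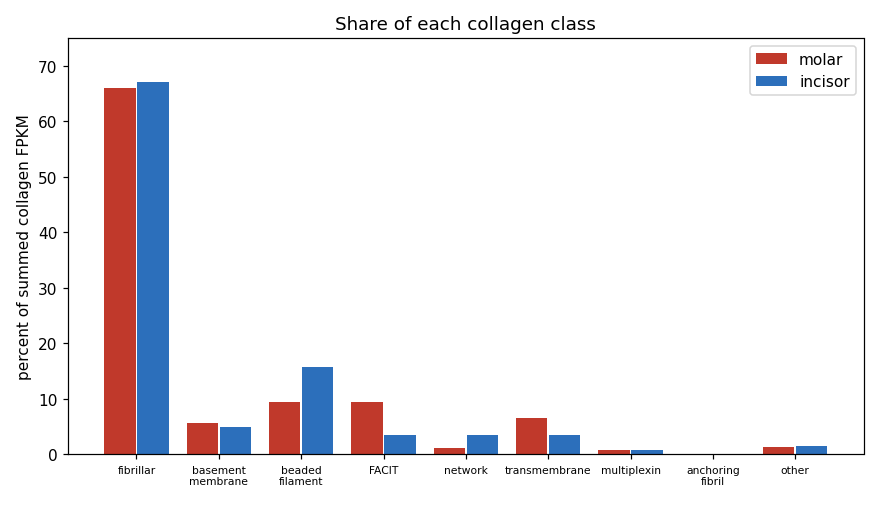
Percent of the summed collagen FPKM held by each class in molar (red, left bar) and incisor (blue, right bar). The fibrillar bars stand at 66.0% in molar and 67.1% in incisor, the FACIT and transmembrane bars are taller in molar, and the beaded filament and network bars are taller in incisor.

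The chains of types I and III were the most abundant fibrillar chains, and none of them was called. Col1a1, the main chain of type I collagen (chromosome 11, 94936224 to 94953042, mm10), stood at 154 FPKM in molar against 316 in incisor, and the authors' deposited table gave q = 0.0778. Its partner Col1a2 (chromosome 6, 4505618 to 4541543) stood at 126 FPKM in molar against 174 in incisor (q = 0.305). Col3a1, which alone forms type III collagen of soft and stretchable tissue (chromosome 1, 45311538 to 45349706), stood at 149.5 FPKM in molar against 83.5 in incisor (q = 0.204). Col3a1 was thus listed close to Col1a1 in molar, with a ratio of 0.973, against a ratio of 0.264 in incisor. Col3a1 took 20.9% of collagen FPKM in molar against 9.07% in incisor, and Col1a1 took 21.4% in molar against 34.3% in incisor. The ratio of Col1a1 to Col1a2 was 1.22 in molar against 1.81 in incisor. None of these ratios could be tested with 1 value per tissue.

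Types V and XI are minor fibrillar collagens that start fibrils and limit their width. Col5a2, a chain of most type V trimers (chromosome 1, 45374331 to 45503282), stood at 21.8 FPKM in molar against 20.2 in incisor (authors' q = 0.714). Col5a1, its usual partner, stood at 3.38 FPKM in molar against 4.04 in incisor (q = 0.504). Col11a1 stood at 4.31 FPKM in molar against 5.58 in incisor (q = 0.384), and Col11a2 at 0.851 in molar against 1.12 in incisor (q = 0.553). Of these minor chains Col5a3, an alternative type V chain (chromosome 9, 20770057 to 20815067), was the one called. It stood at 5.81 FPKM in molar against 1.97 in incisor, 2.94-fold higher in molar, and the authors' deposited table gave q = 0.0345. Relative to Col5a2, the level of Col5a3 was 0.266 in molar against 0.0978 in incisor, while that of Col5a1 was 0.155 in molar against 0.200 in incisor. The molar level of Col5a1 lies below 3.72 FPKM, a limit explained with Col24a1 below, so its molar ratio is uncertain in size. The ratio of Col11a1 to Col11a2 was 5.07 in molar against 4.99 in incisor. Its molar value is uncertain, as Col11a2 stood at only 0.851 FPKM there.

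The other called fibrillar chains were Col2a1, Col24a1 and Col27a1. Col2a1, the main collagen of cartilage (chromosome 15, 97975602 to 98004724), stood at 4.11 FPKM in molar against 0.525 in incisor, 7.82-fold higher in molar, with q = 0.000664 in the authors' deposited table. Col24a1, a fibrillar chain known from developing bone (chromosome 3, 145292472 to 145552011), stood at 2.15 FPKM in molar against 0.675 in incisor, 3.19-fold higher in molar (q = 0.0268). Col27a1, known from the cartilage of growth plates (chromosome 4, 63215412 to 63334990), stood at 1.73 FPKM in molar against 9.61 in incisor, 5.56-fold higher in incisor (q = 0.00326). Col24a1 and Col27a1 belong to the same branch of the fibrillar class and were called in opposite directions. Low molar values carry a limit, since 99% of the genes for olfactory, vomeronasal and taste receptors lay at or below 3.72 FPKM in molar against 0.122 FPKM in incisor. The molar values of Col24a1 and Col27a1 lie below that level, so their folds are uncertain in size. For Col24a1, which was called higher in molar, the direction of the call is uncertain too. The molar value of Col2a1, 4.11 FPKM, lies only a little above that level, so its fold is also uncertain in size. These 1462 receptor genes had a median longest transcript of 3031 bases, beside 5989 bases for the 44 chains.

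The stretches before the annotated starts of Col24a1 and Col27a1 are printed because these related chains were called in opposite directions. The Col24a1 call is uncertain, as given above. Here and below a promoter is the 250 bases before a RefSeq start on GRCm38.p6, the assembly behind mm10, written in the direction of the gene. Capitals mark matches, on either strand, to the GC box (GGGCGG), the CCAAT box (CCAAT), the TATA box (TATAAA), a Sox core (ACAANG) or an AP-1 site (TGANTCA).
Col24a1, chr3:145292222-145292471, plus strand: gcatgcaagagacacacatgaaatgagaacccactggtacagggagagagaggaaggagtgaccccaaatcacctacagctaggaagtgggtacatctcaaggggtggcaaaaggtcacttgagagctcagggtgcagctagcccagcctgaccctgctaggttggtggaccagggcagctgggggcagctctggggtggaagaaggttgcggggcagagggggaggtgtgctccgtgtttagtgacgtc
Col27a1, chr4:63215162-63215411, plus strand: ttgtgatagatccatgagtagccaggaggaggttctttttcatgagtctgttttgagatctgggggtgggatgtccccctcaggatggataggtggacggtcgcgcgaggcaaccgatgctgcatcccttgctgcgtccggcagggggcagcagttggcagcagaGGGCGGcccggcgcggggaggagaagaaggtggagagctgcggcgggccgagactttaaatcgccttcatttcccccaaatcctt
The Col24a1 stretch matched none of these motifs and the Col27a1 stretch held 1 GC box. GC content was 58.0% for Col24a1 and 59.6% for Col27a1. A GC box was found in 32.7% of all 32851 promoters and in 22 of 38 collagen promoters, and a CCAAT box in 33.8% of all promoters and in 13 of 38. A Sox core was found in 36.3% of all promoters and in 10 of 38, a TATA box in 12.4% and in 5 of 38, and an AP-1 site in 6.75% and in 1 of 38. The 38 promoters belong to 35 chains.

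Among FACIT chains, 4 of 8 tested were called higher in molar and 1 was called higher in incisor, beside 11.9% and 4.28% of all tested genes in those directions. Type IX collagen, which coats the thin fibrils of cartilage, had Col9a1 and Col9a2 called. Col9a2 (chromosome 4, 121039566 to 121055325) stood at 33.5 FPKM in molar against 8.45 in incisor, 3.97-fold higher in molar, and the authors' deposited table gave q = 0.00124. Col9a1 (chromosome 1, 24177610 to 24252738) stood at 5.68 FPKM in molar against 1.21 in incisor, 4.71-fold higher in molar (q = 0.000664). The remaining chain of this trimer, Col9a3, stood at 9.97 FPKM in molar against 4.63 in incisor (q = 0.146, not called), and the interval of its row also holds the coding gene Tcfl5. Col9a2 had the highest level of the trimer in both tissues. The ratio of Col9a1 to Col9a2 was 0.169 in molar against 0.143 in incisor, and that of Col9a3 to Col9a2 was 0.297 in molar against 0.548 in incisor.

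Cartilage genes outside the collagens were called in both directions. Cnmd, a secreted inhibitor of vessel growth found under its older symbol Lect1, stood at 109 FPKM in molar against 34.7 in incisor and was called higher in molar (authors' q = 0.00676). Sox9, the transcription factor that switches on cartilage collagens, stood at 10.6 FPKM in molar against 31.2 in incisor and was called higher in incisor (q = 0.0157). The link protein gene Hapln1 was called in that direction too, at 6.34 FPKM in molar against 21.6 in incisor. Acan, the main cartilage proteoglycan, was not called, at 0.921 FPKM in molar against 1.27 in incisor. The 8 chondrocyte markers, 7 of them tested, summed to 128 FPKM in molar against 88.9 in incisor, with Matn1 listed at 0 in incisor and Snorc in both tissues. Cnmd alone held most of the molar sum. Over the 4 markers at 1 FPKM or more, the median log2 ratio of molar over incisor was -0.86, with a pseudocount of 1 FPKM. Of the 7 tested, 1 was called higher in molar and 2 in incisor, beside 11.9% and 4.28% of all tested genes. The part of cartilage cells in the levels of Col2a1 and the type IX chains was not tested.

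The stretch before the more upstream of the annotated Col9a1 starts, that of the long isoform, is shown because Sox9 is a known regulator of this gene.
Col9a1, chr1:24177360-24177609, plus strand: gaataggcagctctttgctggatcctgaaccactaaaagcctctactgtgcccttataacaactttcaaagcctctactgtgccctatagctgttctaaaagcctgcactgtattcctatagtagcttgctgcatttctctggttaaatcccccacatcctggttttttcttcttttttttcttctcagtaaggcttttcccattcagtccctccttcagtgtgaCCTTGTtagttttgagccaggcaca
It held 1 Sox core, beginning 25 bases before the start, and none of the other motifs, at a GC content of 43.6%. The stretch before the downstream start (chromosome 1, 24194953 to 24195202) held no Sox core and 1 CCAAT box, and the table does not separate the isoforms.

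Col16a1, Col19a1 and Col12a1 were the other called FACIT chains. Col16a1, which is found with fibrillin filaments in skin (chromosome 4, 130047840 to 130099277), stood at 10.9 FPKM in molar against 1.48 in incisor, 7.37-fold higher in molar, and the authors' deposited table gave q = 0.000664. Col19a1, a rare chain of basement membrane zones (chromosome 1, 24257683 to 24587437), stood at 0.861 FPKM in molar against 0.137 in incisor, 6.28-fold higher in molar (q = 0.00592). Its molar level lies below the 3.72 FPKM reached by chemoreceptor genes there, so the direction of its call is uncertain as well as its fold. Col19a1 is the 1 called chain under 1 FPKM in both tissues. Col12a1, a long chain of tendon, periosteum and periodontal ligament (chromosome 9, 79598987 to 79718722), stood at 5.44 FPKM in molar against 13.7 in incisor, 2.53-fold higher in incisor (q = 0.0244). The remaining FACIT chains stayed under 1 FPKM in both tissues. Among them, Col22a1, known from muscle and tendon junctions, stood at 0.0650 FPKM in molar against 0.851 in incisor (q = 0.383), and Col14a1 at 0.874 in molar against 0.502 in incisor (q = 0.343). The FACIT sum was 2.17 times as high in molar as in incisor, 1.86 times with median centring and 1.44 times with equal FPKM totals. Col9a2 held 33.5 of the 67.5 FPKM of the molar sum. Col12a1, called in the other direction, was the highest FACIT chain in incisor, with 13.7 of the 31.1 FPKM there.

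Type VIII collagen is a network former made in vessel walls. Both of its chains were called higher in incisor, beside 4.28% of all tested genes. Col8a1 (chromosome 16, 57624256 to 57754737) stood at 2.17 FPKM in molar against 12.5 in incisor, 5.76-fold higher in incisor, with q = 0.00176 from the authors' deposited table. Col8a2 (chromosome 4, 126286794 to 126314330) stood at 5.07 FPKM in molar against 18.2 in incisor, 3.59-fold higher in incisor (q = 0.0218). Col8a2 exceeded Col8a1 in both tissues, with a ratio of Col8a1 to Col8a2 of 0.429 in molar against 0.689 in incisor. The molar level of Col8a1 lies below the 3.72 FPKM that 99% of chemoreceptor genes did not exceed there, so its fold and the molar ratio are uncertain in size. The mural sum, held mostly by Rgs5 in incisor, was higher in incisor, while single mural markers were called in both directions. The endothelial sum was higher in molar, as given above. The part of these cell types in the type VIII levels was not tested. The other network chain, Col10a1 of hypertrophic cartilage, stood at 0.489 FPKM in molar against 0.344 in incisor (q = 0.630), and its row's interval also holds the gene Nt5dc1.

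The promoters of both type VIII genes are printed because these partner chains, on different chromosomes, were called in the same direction.
Col8a1, chr16:57754738-57754987, minus strand: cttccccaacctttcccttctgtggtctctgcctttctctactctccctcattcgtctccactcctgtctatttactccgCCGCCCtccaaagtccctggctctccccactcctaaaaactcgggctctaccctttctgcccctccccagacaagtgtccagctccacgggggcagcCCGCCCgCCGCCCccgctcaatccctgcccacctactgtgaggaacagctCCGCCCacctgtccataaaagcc
Col8a2, chr4:126286544-126286793, plus strand: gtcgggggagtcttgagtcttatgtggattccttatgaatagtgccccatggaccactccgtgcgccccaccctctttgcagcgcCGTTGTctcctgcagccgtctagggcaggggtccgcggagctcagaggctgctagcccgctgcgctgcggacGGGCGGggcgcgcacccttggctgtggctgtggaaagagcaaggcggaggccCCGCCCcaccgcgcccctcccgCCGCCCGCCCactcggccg
Both stretches held 4 GC boxes, counted with overlap, the nearest beginning 23 bases before the start in Col8a1 and 15 bases before it in Col8a2. Col8a2 also held 1 Sox core. GC content was 60.8% for Col8a1 and 70.0% for Col8a2. A match is a description of the letters and says nothing of a factor bound there.

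**Figure D3:**
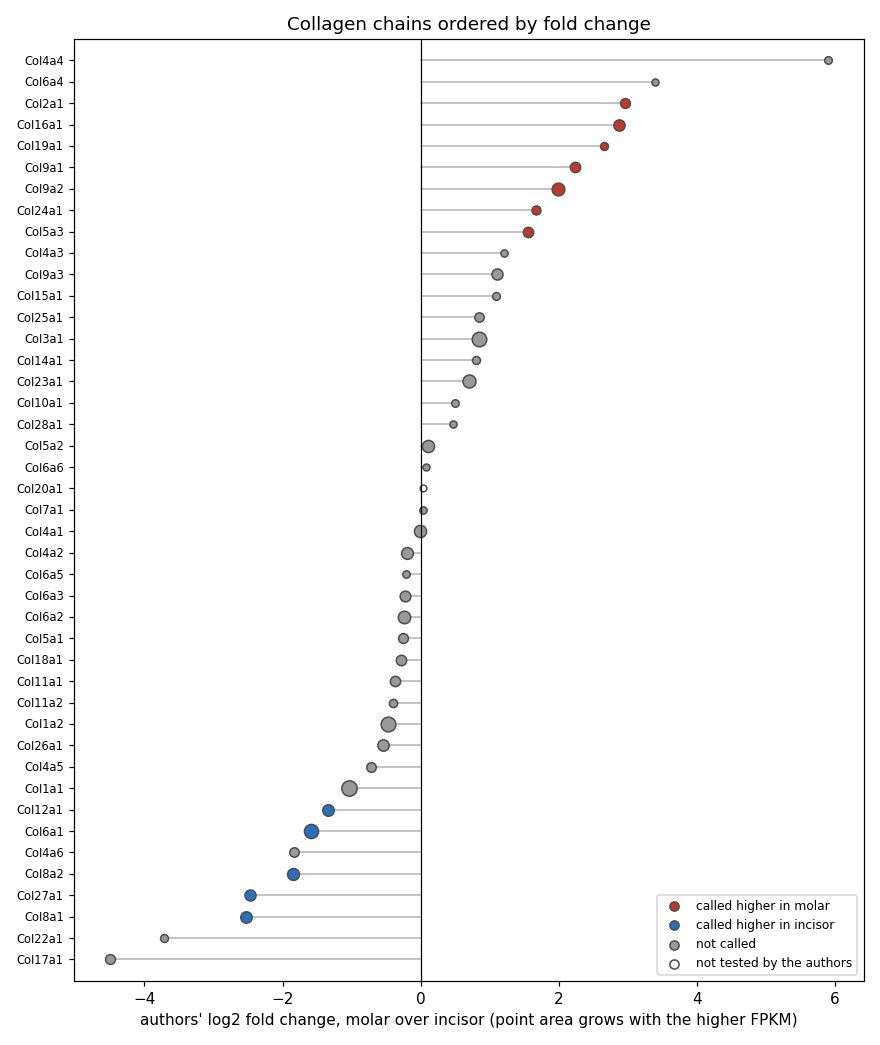
The authors' log2 fold change (molar over incisor) of the chains with a finite fold, from the highest at the top to the lowest at the bottom, with point area growing with the higher of both FPKM values. Called chains are red (higher in molar) or blue (higher in incisor), and the points farthest from 0 in either direction, Col4a4, Col6a4, Col22a1 and Col17a1, are chains that were not called.

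In type VI collagen, the beaded microfibril that surrounds cells, 1 of 6 chains was called, a share near the 16.2% of all tested genes called in either direction. Col6a1 (chromosome 10, 76708792 to 76726044) stood at 35.5 FPKM in molar against 107 in incisor, 3.01-fold higher in incisor, and the authors' deposited table gave q = 0.00955. Its partner Col6a2 (chromosome 10, 76595756 to 76623404) stood at 24.1 FPKM in molar against 28.6 in incisor (q = 0.495), and the large chain Col6a3 at 6.66 in molar against 7.83 in incisor (q = 0.519). The ratio of Col6a1 to Col6a2 was 1.47 in molar against 3.75 in incisor, while that of Col6a3 to Col6a2 was 0.276 in molar against 0.274 in incisor. Col6a1 and Col6a2 lie on the same strand with 85161 bases between them. Col6a4, Col6a5 and Col6a6, the alternatives to Col6a3, stayed under 1 FPKM in both tissues.

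None of the 6 type IV chains of basement membranes was called in the authors' deposited table, beside 16.2% of all tested genes in either direction. An unadjusted p under 0.05 in that table was listed for Col4a4, higher in molar, and for Col4a6, higher in incisor. Col4a4 lay under 1 FPKM in both tissues, and the share of all tested genes under that p was not computed. Col4a1, of the pair found in most basement membranes, stood at 22.1 FPKM in molar against 22.1 in incisor (q = 0.993 in the authors' deposited table). Its partner Col4a2 stood at 14.1 FPKM in molar against 16.1 in incisor (q = 0.690), and the ratio of Col4a1 to Col4a2 was 1.57 in molar against 1.37 in incisor. These genes lie head to head on chromosome 8, their annotated ends overlap by 22 bases, and both rows carry the same interval (11198423 to 11449287). Endothelial markers, from cells that rest on such a membrane, summed to 250.4 FPKM in molar against 11.7 in incisor.

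Type IV chains outside that pair were lower. Col4a5, known from epithelial and smooth muscle basement membranes, stood at 2.05 FPKM in molar against 3.38 in incisor (q = 0.295), and Col4a6, which lies head to head with it on chromosome X with 1308 bases between them, at 0.852 in molar against 3.04 in incisor (q = 0.119). Col4a3 and Col4a4 are chains of the kidney filter, head to head on chromosome 1 with 71 bases between them. Col4a3 stood at 0.345 FPKM in molar against 0.150 in incisor (q = 0.310), and Col4a4 at 0.631 in molar against 0.0106 in incisor (q = 0.161).

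**Figure D4:**
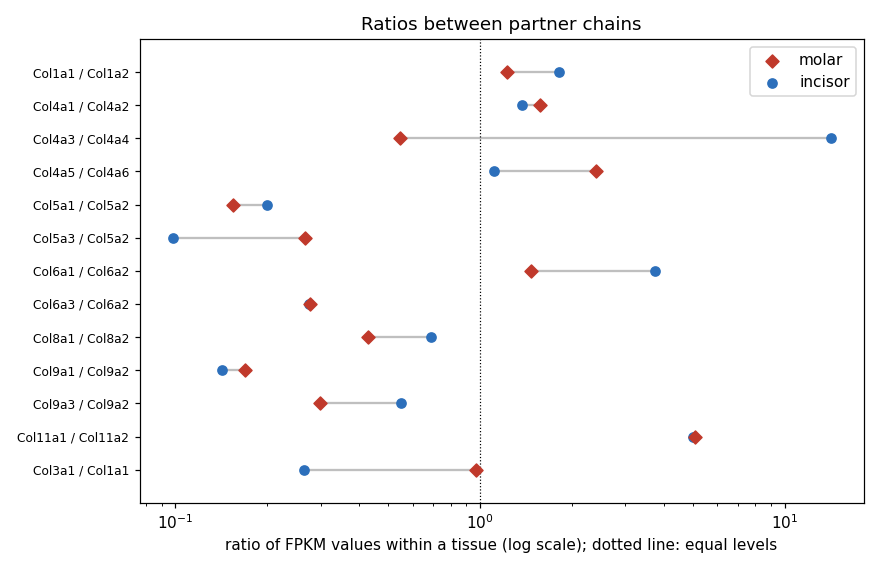
Ratio of FPKM between partner chains within molar (red diamonds) and within incisor (blue circles), on a log axis, with the dotted line at equal levels. The points of Col6a3 to Col6a2 and of Col11a1 to Col11a2 nearly coincide, and Col3a1 to Col1a1 stands at 0.973 in molar and 0.264 in incisor. The molar point of Col11a1 to Col11a2 rests on a Col11a2 value under 1 FPKM. The molar points of Col5a1 to Col5a2, Col8a1 to Col8a2 and Col4a5 to Col4a6 also rest on values below 3.72 FPKM. The wide gap of Col4a3 to Col4a4 rests on values under 1 FPKM.

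Transmembrane collagens were led by Col23a1, a chain that is shed from the cell surface (chromosome 11, 51289920 to 51583925). It stood at 43.3 FPKM in molar against 26.6 in incisor, rank 4 among the chains in molar and rank 6 in incisor, and was not called (q = 0.252 in the authors' deposited table). Col25a1, needed for motor axons to reach muscle in mice, stood at 2.80 FPKM in molar against 1.56 in incisor (q = 0.244). Col17a1, which anchors epithelial cells in hemidesmosomes, stood at 0.180 FPKM in molar against 4.05 in incisor and was not called (q = 0.365). Dental epithelial markers were higher in incisor, as given above, and their part in the Col17a1 level was not tested. The transmembrane sum was 1.44 times as high in molar as in incisor, 1.23 times with median centring and 0.951 times with equal FPKM totals. Col13a1, a chain of the nerve and muscle junction, stood at 0.0491 FPKM in molar, with a listed 0 in incisor.

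None of the remaining chains was called. Col18a1, the source of the vessel growth inhibitor endostatin, stood at 4.91 FPKM in molar against 5.996 in incisor (authors' q = 0.490), and its row's interval also holds Slc19a1. Col15a1, its multiplexin relative, stood at 0.767 FPKM in molar against 0.359 in incisor (q = 0.353). Col26a1, a secreted chain outside the other classes, stood at 8.51 FPKM in molar against 12.5 in incisor (q = 0.328). Col7a1, the anchoring fibril of skin, stood at 0.404 FPKM in molar against 0.395 in incisor (q = 0.974). Col28a1, a chain of peripheral nerve, stood at 0.305 FPKM in molar against 0.220 in incisor (q = 0.487). Schwann cell markers summed to 7.36 FPKM in molar against 32.3 in incisor. Of the 5 tested, 1 was called higher in molar, beside 11.9% of all tested genes. It was Cdh19, at 1.38 FPKM in molar against 0.213 in incisor. Its molar level lies below the 3.72 FPKM of chemoreceptor genes, so the direction of its call is uncertain.

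Of 31 genes for collagen folding, modification, secretion and crosslinking, calls went to 2 genes higher in molar and to 3 higher in incisor, beside 16.2% of all tested genes in either direction. Their median log2 difference with a pseudocount of 1 was -0.10 over the 26 genes at 1 FPKM or more, beside 0.14 over all genes. Serpinh1, the collagen-specific chaperone, stood at 332 FPKM in molar against 111 in incisor, and the authors' deposited table gave q = 0.00465. Fkbp10, a prolyl isomerase that folds procollagen, stood at 116 FPKM in molar against 32.9 in incisor (q = 0.0329). Plod2, the lysyl hydroxylase that prepares collagen ends for crosslinking, stood at 1.92 FPKM in molar against 30.3 in incisor, 15.8-fold higher in incisor (q = 0.000664). Another lysyl hydroxylase, Plod1, stood at 18.6 FPKM in molar against 54.1 in incisor (q = 0.0180). Adamts3, which removes the amino-terminal propeptide of procollagen, stood at 1.83 FPKM in molar against 11.04 in incisor (q = 0.00176). The molar levels of Plod2 and Adamts3 lie below the 3.72 FPKM of chemoreceptor genes, so their folds are uncertain in size.

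Collagen receptors had 1 of 11 tested genes called, a share below the 16.2% of all tested genes called in either direction. Ddr2, a receptor tyrosine kinase for fibrillar collagen, stood at 2.53 FPKM in molar against 9.54 in incisor, 3.77-fold higher in incisor, with q = 0.00465 from the authors' deposited table, and its molar level also lies below 3.72 FPKM. The integrin subunit Itgb1, part of all collagen-binding integrins, stood at 17.4 FPKM in molar against 39.3 in incisor (q = 0.0565, not called), and its partner Itga11 at 0.773 in molar against 6.95 in incisor (q = 0.0890, not called). Of 7 tested collagen-degrading enzymes, 1 was called, a share near that 16.2%. It was Mmp13, a collagenase of mouse bone, which stood at 4.37 FPKM in molar against 375 in incisor, 85.9-fold higher in incisor (q = 0.000664). The molar value of Mmp13 lies only a little above 3.72 FPKM, so its fold is uncertain in size. The osteoclast protease Ctsk stood at 161 FPKM in molar against 162 in incisor (q = 0.967).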

How the data were processed

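RNA of FDG-positive pulp cells had been sequenced in 2 molar and 2 incisor libraries. Trim Galore, HISAT2 (version 2), edgeR and the mm10 build appear, in no stated order, in the submitters' processing notes. Per the file headers, the authors' deposited table holds 1 FPKM value per tissue, a log2 fold change of molar over incisor, a signed test statistic (a score), and p-value and q-value columns. Its making, annotation, strand setting and library scaling are not stated in labels or headers. With no values per library, the planned count model, SD and tests over samples could not be had, and calls rest on the authors' q under 0.05. The depth is unknown.

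Members were found by symbol with Python 3.11.15 and pandas 2.3.3. The members, classes, markers and companion lists were chosen with earlier results of these data known. Starts were moved by 1 base to 1-based mm10 coordinates. Medians used a pseudocount of 1 FPKM and genes at 1 FPKM or more. The plan was to name the chains called, the 10 highest by the larger FPKM, and their partners. Further chains outside that plan were named as well. Transcript lengths and overlapping genes came from GENCODE M21, and promoters from RefSeq (GRCm38.p6). Summary code was tested on simulated data. Alternatives were other q thresholds, pseudocounts, FPKM minimums and scalings.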

Additional observations from a re-analysis of the deposited data

How the results depend on the processing

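Median centring moves every log2 fold by 0.22 and equal FPKM totals by 0.60, both below the smallest absolute log2 fold among the 12 called chains, 1.34, so neither can turn a direction and neither tests stability; calls could not be recomputed. The 7 chains higher in molar became 5 at q under 0.01 and 6 at 1 FPKM or more. The 5 chains higher in incisor became 3 at q under 0.01 and were 5 under the other alternatives. Without rows whose interval holds another coding gene, an alternative chosen after seeing the data, 37 tested chains gave 7 and 5. The median log2 difference of all chains, -0.20, was 0.0064 over every chain with a row, -0.39 with centring and -0.71 with equal totals. For fibrillar chains it was -0.20, against -0.065 with a pseudocount of 5 FPKM, -0.31 at 5 FPKM or more and -0.46 with equal totals. For basement membrane chains it was -0.35, against -0.20 with a pseudocount of 5 FPKM, -0.093 over every chain and also at 5 FPKM or more, -0.53 with centring and -0.81 with equal totals. For FACIT chains it was 1.60, against 1.98 with a pseudocount of 0.1 FPKM, 0.78 with one of 5 FPKM, 0.71 over every chain, 1.41 with centring and 1.11 with equal totals. The cause of these shifts was not tested. Leaving out single libraries was not run, and no paired analysis was possible because the table holds 1 combined value per tissue.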
